A study of Mus musculus with 40 samples.

Results

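The 32 genes described here make, exchange or carry amino acids and the one-carbon units derived from them. They were taken by name from a list that was written with earlier results of these data known. All 32 had a row in a mouse gene count table of 39056 gene identifiers. They also passed the filter on low counts, which left 15135 genes to test. By role they comprise 3 enzymes of serine synthesis, 6 of folate one-carbon metabolism, 3 of asparagine and proline synthesis, 2 of transsulfuration, 5 aminotransferases, 6 transporter subunits of the SLC7 and SLC3 families and 7 other transporters. Their RNA was measured by bulk sequencing in developing oligodendrocytes, the glia that go on to form myelin, of wild-type C57BL/6 mice aged 6 to 7 days by the labels. Thapsigargin, which blocks the calcium pump of the endoplasmic reticulum (ER), was given at 200 uM as the labels state it, with collection at 1 and 8 h. IFN-gamma (interferon-gamma), an inflammatory cytokine that T cells release, was given at 200 U/ml, with collection at 1, 8, 24 and 48 h, and untreated cells were collected at the same 4 times. Each of the 10 groups held 4 libraries. All groups shared the same preparation: progenitors were immunopanned (captured on antibody-coated dishes), passaged 2 times and left to differentiate for 12 to 14 h before plates were assigned to treatments at random. The tissue is given as whole brain in one label and as cortex in the protocol. Nothing says whether the 4 libraries of a group came from separate animals or cultures. The p-values thus refer to the spread among the libraries at hand, which may be technical. That spread was estimated for each gene in the fit over all 40 libraries. A standard error (SE) therefore does not describe the spread of the compared groups alone.

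Serine, asparagine, proline, alanine, aspartate and cysteine can all be made inside a mouse cell, while others must be carried in by transporters at the plasma membrane. Serine also feeds the folate cycle, in which mitochondrial and cytosolic enzymes pass one-carbon units toward nucleotides and methionine. When ER stress or a lack of amino acids leads to phosphorylation of the translation factor eIF2alpha, the transcription factor ATF4 is made in larger amounts and acts on many genes of amino acid supply, often through composite elements that a C/EBP and an ATF factor bind together. Myelin is rich in protein and lipid, so its making draws on amino acids and on methyl groups from the one-carbon cycle.

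The libraries held 13165483 to 22651092 reads on genes, and replicates differed by more than sampling noise in each of the 60 pairs compared. Levels are given as CPM, reads scaled to a common library size. The 4 lineage markers Olig1, Olig2, Sox10 and Nkx2-2 summed to 969 to 3530 CPM over all libraries, and the 6 microglial markers to at most 4.62 CPM, with 5 of them under 1 CPM on average. Astrocyte markers were present in every library, at a summed 91.9 to 372 CPM. At 8 h the lineage markers summed to 969 to 1090 CPM in thapsigargin libraries, against 2477 to 2829 CPM in untreated ones, and the 6 neuron markers to 179.97 to 198 CPM against 63.5 to 77.1 CPM. The astrocyte markers summed to 91.9 to 103 CPM against 201 to 270 CPM in the same groups. With IFN-gamma they summed to 316 to 354 CPM at 24 h, against 205 to 237 CPM in untreated libraries. At 1, 8 and 48 h the IFN-gamma and untreated libraries overlapped in this sum. The 7 premyelinating and myelinating markers summed to 708 to 1240 CPM with IFN-gamma at 8 h, against 1614 to 3059 CPM in untreated libraries. At 24 h they summed to 1005 to 2318 CPM against 3250 to 6719 CPM. At 48 h they summed to 1293 to 7071 CPM against 6425 to 17171 CPM, and here the libraries overlapped. In thapsigargin 8 h libraries they summed to 435 to 1009 CPM. In such bulk samples, fewer cells of a type and less RNA per cell cannot be told apart, and the part of these marker levels in the results was not tested. Libraries also stood apart within groups. Y-linked transcripts (Kdm5d, Eif2s3y and Uty) were low, below a summed 10 CPM, for 8 of 16 libraries given IFN-gamma, 2 per time, against 103 to 299 CPM in untreated libraries. Ribosomal RNA-like features took 24.3% of reads in replicate 2 of IFN-gamma 1 h. The 7 premyelinating and myelinating markers summed to 1293 CPM in replicate 1 of IFN-gamma 48 h, against 4790 to 7071 CPM in its other 3 libraries, and to 6719 CPM in replicate 4 of untreated 24 h, against 3250 to 3626 CPM in its other 3. In untreated 48 h they were lowest in replicate 2, at 6425 CPM against 13975 to 17171 CPM in the other 3.

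Thapsigargin for 8 h raised most of the list. By edgeR's quasi-likelihood test with adjustment over all genes tested, 28 of the 32 genes were higher and 3 lower than in untreated cells of 8 h, while 29.6% of all genes were called higher and 31% lower. Of the 28 that rose, 25 did so at least 2-fold, as 10.1% of all genes did. The median log2 fold change was 2.08 over the 32 genes and -0.01 over all genes. The 28 were higher in every thapsigargin library than in any untreated one and the 3 that fell were lower in every one, against 27.8% and 28.9% of all genes, and the libraries overlapped only for Cbs. Leaving out any 1 of the 8 libraries left 31 genes called. Because the list was chosen with earlier results of these data known, the shares of all genes beside it are a description and not a test.

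**Figure D1:**
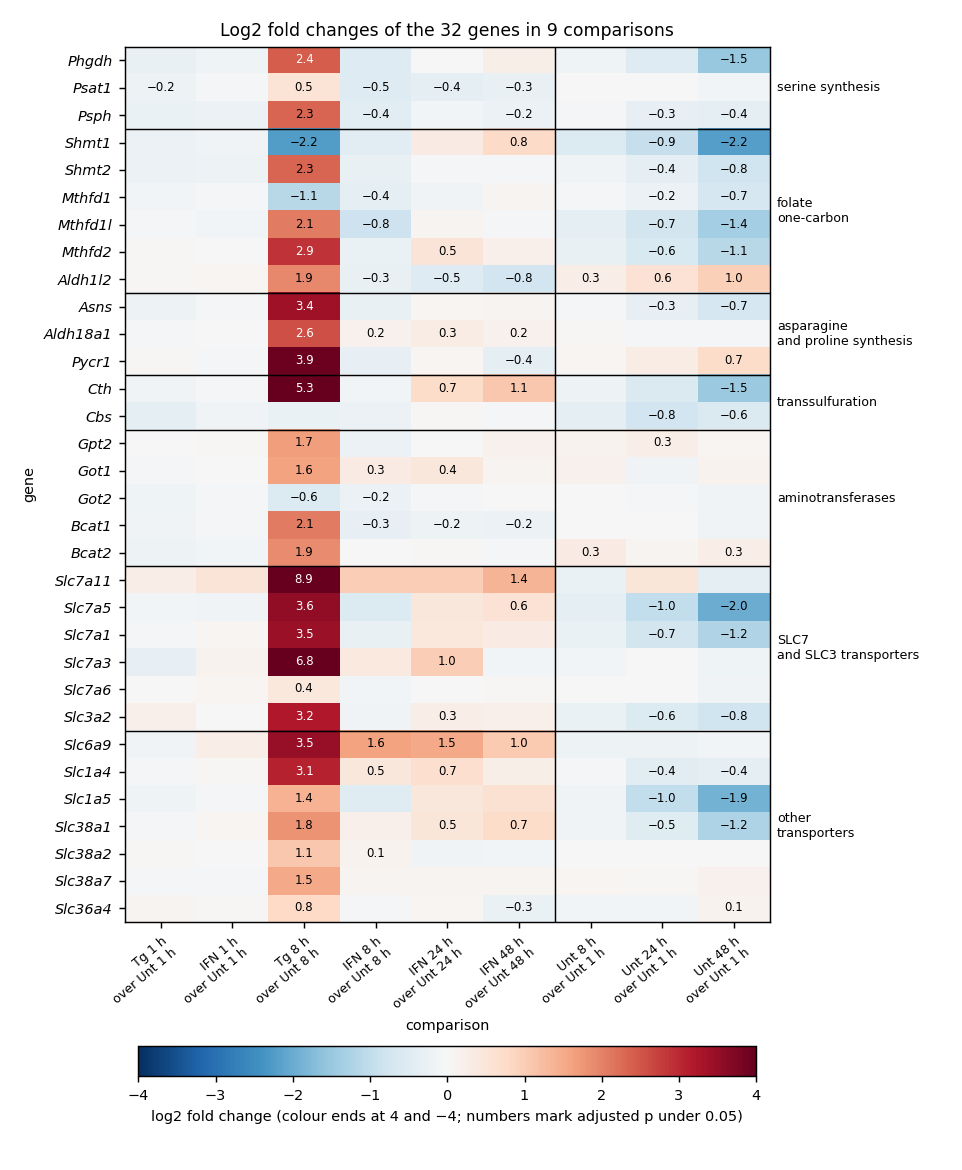
Log2 fold changes of the 32 genes (rows, grouped by role) in 9 comparisons (columns), with treated over untreated cells of the same time on the left of the vertical line and later over 1 h untreated cells on its right. Red is higher in the first-named group, blue is lower, and a number marks an adjusted p under 0.05. The column of thapsigargin at 8 h is red for 28 genes, and the numbers of the other columns are mostly within 1 unit of 0.

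The cystine importer and the cationic transporter Slc7a3 rose most. Slc7a11, which exchanges extracellular cystine for glutamate, stood at 241, 259, 212 and 238 CPM in the 4 thapsigargin 8 h libraries, against 0.351, 0.577, 0.663 and 0.357 CPM in untreated 8 h libraries. It was nearly silent in untreated cells, at 7, 13, 9 and 5 reads per library, and was among the strongest rises of the whole table, at rank 6 of 15135. It rose by 8.92 ± 0.34 on the log2 scale (SE, n = 4 per group, adjusted p = 2.37e-22), or 483-fold, a ratio that rests on few reads in untreated cells. With the deposited transcript table summed per gene in place of the gene table, the rise was smaller, at 5.74 on the log2 scale. Slc7a3 reached 96.02, 96.9, 81.9 and 85.2 CPM with thapsigargin, against 0.601, 0.977, 0.442 and 1.28 CPM in untreated cells, a rise of 6.75 ± 0.28 (log2, SE, adjusted p = 4.77e-21), and of 5.86 on its protein-coding transcripts alone, a setting chosen after seeing the data. Its sister Slc7a1, the widely expressed carrier of arginine and lysine, was already well expressed and rose to 709, 797, 824 and 894 CPM, against 70.1, 67.6, 92.7 and 64.2 CPM in untreated cells (10.9-fold). Both cationic carriers were thus several-fold higher in each thapsigargin library than in any untreated one. Slc7a5, the large neutral amino acid carrier, stood at 927, 890.3, 919 and 887 CPM against 90.4, 72.2, 85.7 and 60.5 CPM, and Slc3a2, the heavy chain that brings Slc7a5, Slc7a6 and Slc7a11 to the membrane, at 651, 653, 674 and 654 CPM against 70.4, 71.2, 75.6 and 67.2 CPM. Their folds were 11.7 and 9.26. Slc7a6, which trades cationic for neutral amino acids, moved least of this family, by 0.43 ± 0.07 on the log2 scale (adjusted p = 4.07e-06).

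Promoter sequence was available from RefSeq (GRCm38.p6) for 26 of the 32 genes, as windows of 300 bases from 250 before to 50 after each start. The C/EBP-ATF composite element was searched as TTNCATCA and its reverse complement TGATGNAA, on both strands. It was present in windows of 5 of the 26 genes (19.2%), against 4.51% of 27025 genes with a window. The stricter TTGCATCA (reverse complement TGATGCAA), a subset of the first, was in 4 of 26 (15.4%) against 1.03%. The full cyclic AMP element TGACGTCA was in none of the 26, against 2.03%, and TTCNNNGAA, the STAT element, was in 4 (15.4%), against 9.55%. These shares too are a description, as the list was chosen with earlier results of these data known. The 5 genes with TTNCATCA are shown because they include the strongest rise of the list, Asns and 1 of the 2 proline enzymes, and Shmt1, which fell, is shown beside them as a window with no match. Each line runs from 150 bases before to 10 after the start on the minus strand of GRCm38.p6, 5′ to 3′, with matches in capitals.
Slc7a11 (chr3:50443604-50443763): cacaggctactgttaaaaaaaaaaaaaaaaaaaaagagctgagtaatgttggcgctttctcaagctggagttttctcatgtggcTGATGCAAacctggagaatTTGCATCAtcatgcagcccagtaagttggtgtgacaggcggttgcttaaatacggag
Asns (chr6:7693200-7693359): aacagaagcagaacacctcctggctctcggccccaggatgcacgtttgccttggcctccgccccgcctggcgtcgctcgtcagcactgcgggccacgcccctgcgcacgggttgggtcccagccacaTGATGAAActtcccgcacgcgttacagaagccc
Pycr1 (chr11:120643739-120643898): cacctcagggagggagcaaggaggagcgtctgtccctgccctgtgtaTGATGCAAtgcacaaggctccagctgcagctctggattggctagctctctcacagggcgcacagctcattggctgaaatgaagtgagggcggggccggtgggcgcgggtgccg
Slc1a4 (chr11:20332704-20332863): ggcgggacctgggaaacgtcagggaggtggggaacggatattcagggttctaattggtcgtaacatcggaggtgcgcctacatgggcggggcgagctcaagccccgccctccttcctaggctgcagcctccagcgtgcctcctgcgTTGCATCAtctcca
Got1 (chr19:43524596-43524755): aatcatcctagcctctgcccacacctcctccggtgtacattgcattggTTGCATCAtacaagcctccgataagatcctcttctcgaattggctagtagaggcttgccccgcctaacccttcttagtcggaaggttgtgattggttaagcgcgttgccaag
Shmt1 (chr11:60811256-60811415): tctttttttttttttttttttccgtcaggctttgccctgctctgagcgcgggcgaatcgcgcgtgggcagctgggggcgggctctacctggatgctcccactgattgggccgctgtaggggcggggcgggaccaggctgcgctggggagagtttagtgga
Slc7a11 held 2 matches, starting 66 and 47 bases before its start, and the others held 1 each, from 103 bases before the start in Pycr1 to 4 before it in Slc1a4. The thapsigargin 8 h log2 fold changes of the 5 genes with a match ran from 1.62 to 8.92 with a median of 3.40, and those of the 21 without one from -2.23 to 3.48 with a median of 1.90. For TTCNNNGAA the split was similar, from 2.34 to 8.92 with a median of 3.02 in the 4 genes with it and from -2.23 to 3.92 with a median of 1.78 in those without. The 6 genes with no window, Aldh1l2, Cth, Slc7a5, Slc7a3, Slc1a5 and Slc38a1, are in neither group and include the strong rises of Slc7a3 (6.75), Cth (5.27) and Slc7a5 (3.55). A match describes letters in the window and not occupancy by a factor.

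All 3 enzymes of serine synthesis rose, in unequal measure. Phgdh, which takes the first step from the glycolytic intermediate 3-phosphoglycerate, stood at 628, 567, 629 and 616 CPM with thapsigargin, against 132, 111, 109 and 103 CPM in untreated cells (5.36-fold, log2 2.42 ± 0.23, SE, adjusted p = 4.87e-11). Psph, the phosphatase of the last step, rose by a similar factor, to 254 to 274 CPM against 46.2 to 63.9 CPM (4.996-fold). Psat1, the aminotransferase between them, rose less, to 891, 846, 896 and 842 CPM, against 643, 609, 579.7 and 563 CPM (1.45-fold, adjusted p = 1.24e-09). The libraries of the 2 groups did not overlap for any of these enzymes. Of the exonic bases of Psph, 10.4% overlap the more abundant Cct6a on the other strand, and whether counting used strand is not given in the sources used here.

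The folate enzymes split by compartment. The 4 mitochondrial ones rose: Mthfd2, a dehydrogenase and cyclohydrolase, stood at 372, 370.3, 385 and 359.9 CPM against 53.8, 44.2, 58.5 and 42.1 CPM in untreated cells, and Shmt2, which splits serine into glycine and a one-carbon unit, at 534, 461, 504 and 487 CPM against 108, 100.1, 99.9 and 82.8 CPM. Their folds were 7.49 and 5.07. Mthfd1l, which releases formate, rose 4.24-fold to 94.3 to 109.9 CPM against 17.99 to 28.9 CPM, and Aldh1l2, which oxidises the one-carbon unit to carbon dioxide, 3.82-fold to 662 to 748 CPM against 171 to 195 CPM. Both cytosolic ones fell. Shmt1, the cytosolic counterpart of Shmt2, stood at 11.6, 8.86, 12.9 and 11.2 CPM with thapsigargin, against 58.6, 47.8, 60.3 and 41.97 CPM in untreated cells, or -2.23 ± 0.30 on the log2 scale (SE, adjusted p = 4.83e-08). Mthfd1, the cytosolic enzyme with 3 activities, stood at 66.4, 67.5, 84.7 and 76.2 CPM against 169, 151, 169 and 143 CPM (-1.10 ± 0.09, SE, adjusted p = 8.23e-13). No thapsigargin library reached the lowest untreated library for either gene.

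**Figure D2:**
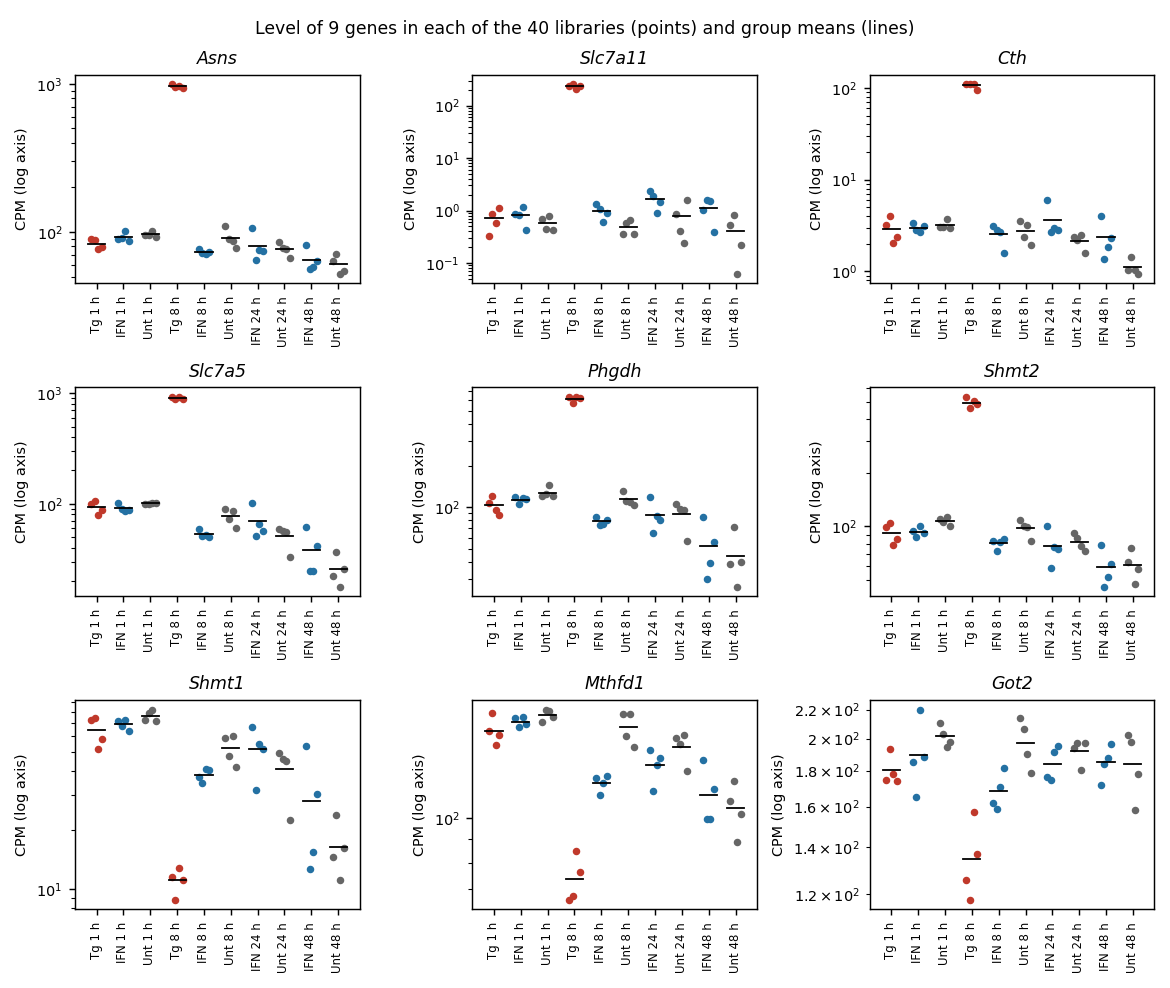
Level of 9 of the genes in CPM (vertical log axis) in each of the 40 libraries, with groups along the horizontal axis by time and a black line at each group mean. Red marks thapsigargin (Tg), blue IFN-gamma (IFN) and grey untreated (Unt) libraries. The 4 thapsigargin 8 h libraries sit above all others for Asns, Slc7a11, Cth, Slc7a5, Phgdh and Shmt2 and at the bottom of the 8 h groups for Shmt1, Mthfd1 and Got2.

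Asparagine synthetase and the proline pathway rose together. Asns, which makes asparagine from aspartate and glutamine, stood at 995, 957, 969 and 939.9 CPM with thapsigargin, against 109.9, 89.9, 87.004 and 77.9 CPM in untreated cells (10.6-fold, log2 3.40 ± 0.13, SE, adjusted p = 1.93e-22). The 4 thapsigargin values lie close together and far from the untreated ones. Pycr1, which completes proline, stood at 90.7, 82.5, 94.4 and 91.5 CPM against 6.36, 6.84, 4.94 and 5.35 CPM, a rise of 15.1-fold. Aldh18a1, which starts proline synthesis from glutamate, rose 5.99-fold, to 693 to 743 CPM against 111 to 128 CPM.

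The 2 enzymes of transsulfuration, the route from methionine to cysteine, parted. Cth, which releases cysteine, stood at 110.3, 109.6, 110.2 and 95.99 CPM with thapsigargin, against 3.51, 2.398, 3.17 and 1.93 CPM in untreated cells (38.5-fold, log2 5.27 ± 0.24, SE, adjusted p = 6.02e-20). Cbs, which makes its substrate cystathionine, stood at 4.902, 4.003, 3.22 and 3.54 CPM against 5.36, 5.28, 4.05 and 4.21 CPM, with overlapping libraries and a log2 fold change of -0.27 ± 0.20 that did not pass the test (adjusted p = 0.249). Both enzymes were at a few CPM in untreated cells, and only Cth passed the test.

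Among the aminotransferases, 4 of 5 rose. Bcat1 and Bcat2, the cytosolic and mitochondrial branched-chain enzymes, stood at 487 to 520.4 and 49.5 to 57.5 CPM with thapsigargin, against 116 to 122 and 13.9 to 15.1 CPM in untreated cells (4.24-fold and 3.74-fold). Of the exonic bases of Bcat2, 15.95% overlap 0610005C13Rik on the other strand, for which no count was found. Gpt2, the mitochondrial alanine aminotransferase, stood at 755, 763, 752 and 757 CPM against 242, 254, 211 and 252 CPM (3.16-fold). Got1, the cytosolic aspartate aminotransferase, stood at 164, 151, 154 and 155 CPM against 55.1, 51.2, 50.98 and 45.3 CPM (3.08-fold). Its mitochondrial counterpart Got2 was the exception, at 126, 118, 157 and 137 CPM against 214, 207, 190.4 and 179 CPM, or -0.55 ± 0.08 on the log2 scale (SE, adjusted p = 3.8e-07). Here the cytosolic gene rose and the mitochondrial one fell, the reverse of the folate pairs.

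These pairings were also compared within libraries, as the log2 ratio of CPM between related genes, given as a description for the 3 pairs whose genes had moved in opposite directions. The ratios themselves are not corrected for transcript length, so only their difference between groups is read. Shmt2 over Shmt1 averaged 5.49 ± 0.17 in thapsigargin 8 h and 0.92 ± 0.14 in untreated 8 h libraries (SD), and Mthfd2 over Mthfd1 averaged 2.34 ± 0.15 and -1.68 ± 0.11. Got1 over Got2 averaged 0.22 ± 0.19 with thapsigargin and -1.96 ± 0.05 without. The direction of these 3 differences follows from the genes' own changes, so only their size is read. Bcat1 over Bcat2 averaged 3.24 ± 0.12 with thapsigargin and 3.06 ± 0.06 without, and Slc38a1 over Slc38a2 -0.86 ± 0.06 and -1.59 ± 0.14. Both had a two-sided exact permutation p of 0.0286 (n = 4 each), the smallest that 4 against 4 allows. Adjustment over 5 pairs left it at 0.0286. It could not raise the value, since all 5 pairs stood at this p, 3 of them through their genes' opposite moves. The branched-chain pair thus moved almost in step, with a difference of 0.18, while the serine pair moved apart by 4.58.

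**Figure D3:**
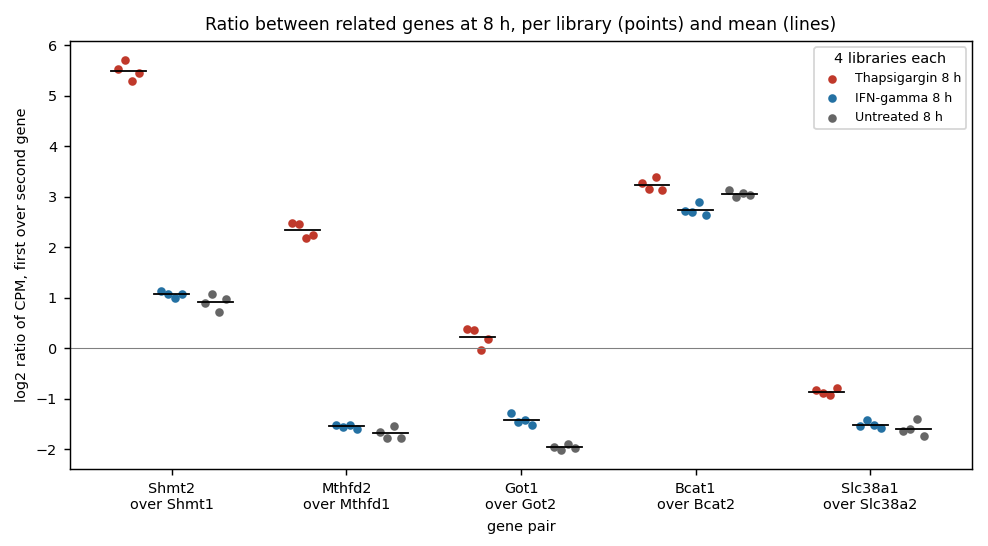
Log2 ratio of CPM of the first over the second gene (vertical axis) for 5 pairs of related genes (horizontal axis) in the 8 h libraries of thapsigargin (red), IFN-gamma (blue) and untreated cells (grey), with 4 points and a mean line for each group. The thapsigargin points lie far above the untreated ones for Shmt2 over Shmt1 (means 5.49 and 0.92) and Mthfd2 over Mthfd1 (2.34 and -1.68), and close to them for Bcat1 over Bcat2 (3.24 and 3.06).

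All 7 of the other transporters rose at 8 h. Slc6a9, the glycine transporter GlyT1, stood at 157, 153, 157 and 169 CPM with thapsigargin, against 14.2, 14.8, 14.7 and 13.1 CPM in untreated cells (11.2-fold, log2 3.48 ± 0.10, SE, adjusted p = 3.66e-26). Slc1a4, a carrier of alanine, serine and cysteine, stood at 395, 399.9, 405 and 396 CPM against 50.6, 46.9, 50.4 and 39.05 CPM (8.53-fold). Its relative Slc1a5, the glutamine carrier ASCT2, rose to 41.2, 41.1, 30.8 and 37.6 CPM, against 16.2, 14.1, 17.9 and 9.78 CPM (2.6000-fold, adjusted p = 4.65e-06). The remaining 4 rose less than most of the list. Of the sodium-coupled neutral carriers, Slc38a1 stood at 347 to 385 CPM against 94.2 to 118 CPM (3.49-fold) and Slc38a2 at 612 to 692 CPM against 308 to 315 CPM (2.11-fold). Slc38a7, a lysosomal glutamine carrier, rose 2.87-fold to 64.3 to 65.3 CPM against 19.3 to 24.96 CPM, and Slc36a4, a proton-coupled family member, 1.74-fold to 102 to 106 CPM against 54.9 to 67.7 CPM.

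After 1 h of thapsigargin almost none of the list had moved. Of 12 regulators of amino acid genes listed beside it, 6 were already higher and none lower. A single gene passed the test: Psat1 was lower, at 543, 566, 519 and 487 CPM against 584, 588, 629.6 and 619 CPM in untreated cells of 1 h, or -0.19 ± 0.06 on the log2 scale (SE, adjusted p = 0.034), while 2.18% of all genes were called lower and 6.61% higher. Each thapsigargin value of Psat1 lay below all 4 untreated values, and the call was lost without any 1 of 4 libraries, replicates 3 and 4 of both groups (adjusted p from 0.0789 to 0.17). No gene of the list rose by edgeR, and 6 of 32 had an unadjusted p under 0.05, while DESeq2 called 2. Asns stood at 89.4, 88.1, 77.1 and 79.7 CPM at 1 h of thapsigargin against 96.3, 95.5, 102 and 93.1 CPM, and Slc7a11 at 0.322, 0.848, 0.589 and 1.12 CPM against 0.691, 0.453, 0.781 and 0.421 CPM, neither of which passed the test (adjusted p = 0.311 and 0.828). All 4 Asns values lay below the untreated ones, and the Slc7a11 libraries overlapped. Among the regulators, Atf4 averaged 374 CPM at 1 h of thapsigargin and 174 CPM in untreated cells (2.15-fold, adjusted p = 2.84e-08). Ddit3, which encodes the ER stress factor CHOP, averaged 32.6 and 5.64 CPM (5.79-fold, adjusted p = 1.08e-14). Trib3, an inhibitor of ATF4 that ATF4 induces, averaged 1.89 and 2.18 CPM and did not pass the test (adjusted p = 0.806).

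The difference between the thapsigargin effects at 8 and 1 h was tested directly. It was higher at 8 h for 28 genes and lower for 3, against 22.7% and 24.8% of all genes. Its largest value was 8.65 ± 0.73 for Slc7a11, or 5.86 with the transcript table, and its most negative -1.98 ± 0.40 for Shmt1 (log2, SE). At 8 h the 3 regulators averaged 943 CPM for Atf4, 559 CPM for Ddit3 and 372 CPM for Trib3 with thapsigargin, against 159.97, 6.47 and 0.9198 CPM in untreated cells. All 3 were then called higher, with log2 fold changes of 2.56, 6.42 and 8.62. Of the 12 regulators, 10 rose at 8 h and none fell, against 29.6% and 31% of all genes, with a median log2 fold change of 2.54. Chac1, which breaks down glutathione and is induced through ATF4, rose 169-fold.

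Other genes of the same pathways are set beside the 29.6% of all genes called higher and 31% called lower at 8 h. Of 23 other one-carbon and methionine genes, 5 rose and 12 fell, with a median log2 fold change of -0.30. Tyms, the thymidylate synthase, fell by 1.94 ± 0.22 on the log2 scale (SE). Of 18 other amino acid synthesis and catabolism genes tested, 6 rose and 5 fell (median 0.02), with Oat, which links ornithine to proline, at 1.36 ± 0.15, Gatm, of creatine synthesis, at -1.09 ± 0.10, and Glul, glutamine synthetase, at -1.02 ± 0.08. Of 21 other amino acid transporter genes tested, 8 rose and 9 fell (median -0.14), shares that like those of the synthesis and catabolism genes lie near the background, with Slc25a13, the mitochondrial aspartate and glutamate carrier, at -1.84 ± 0.22, Slc38a3 at -1.74 ± 0.16 and Slc38a6 at 1.54 ± 0.16. Slc38a6 (0.72 ± 0.17) was already called higher at 1 h, when none of the 32 genes was, and Mat2a, which makes S-adenosylmethionine, and the creatine carrier Slc6a8 were lower (-0.26 and -0.27).

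IFN-gamma moved fewer of the genes, by smaller amounts, and in both directions. At 1 h none of the 32 passed edgeR's test, against 1.08% of all genes called higher and 0.211% lower, 2 had an unadjusted p under 0.05, and DESeq2 also called none. Without replicate 2 of IFN-gamma 1 h, the library rich in ribosomal RNA, Slc6a9 was called higher (0.37, adjusted p = 0.0169). At 8 h 5 genes were higher and 7 lower, against 13.1% and 12.1% of all genes. At 24 h 9 were higher and 3 lower, against 12.6% and 10.5%, and at 48 h 7 were higher and 6 lower, against 16.9% and 19.9%. As shares of the 32 genes, the 7 lower at 8 h and the 9 higher at 24 h stood above the background, and the other 4 counts near it. The count of 9 rested in part on replicate 1 of IFN-gamma 24 h. Without it the calls of Mthfd2, Cth, Slc3a2, Slc7a3 and Slc38a1 were lost, as given below. At 8 h the neuron markers summed to 298 to 353 CPM in IFN-gamma libraries, against 63.5 to 77.1 CPM in untreated ones, and the 4 progenitor markers to 1700.3 to 1879.7 CPM against 3224 to 3376 CPM, and their part in these results was not tested. A fit on the compared groups alone called 20 genes at 8 h and 2 at 48 h in place of 12 and 13.

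The glycine transporter was the clearest response to IFN-gamma. Slc6a9 stood at 44.5, 41.9, 41.2 and 46.4 CPM in IFN-gamma 8 h libraries, against 14.2, 14.8, 14.7 and 13.1 CPM in untreated ones, or 1.61 ± 0.09 on the log2 scale (SE, adjusted p = 1.55e-16), or 3.06-fold. At 24 h it stood at 44.5, 38.05, 40.6 and 38.3 CPM against 16.1, 16.3, 12.2 and 11.9 CPM (1.52 ± 0.09), and at 48 h at 31.97, 29.4, 31.9 and 31.9 CPM against 14.6, 17.1, 14.4 and 14.6 CPM (1.04 ± 0.09). Every IFN-gamma library of these 3 times was above every untreated one, and the call held in all 18 other settings at each time. The effect was larger at 8 h than at 1 h by 1.35 ± 0.13 (interaction, adjusted p = 6.06e-10), and the difference of -0.48 ± 0.13 between the effects at 48 and 24 h was at the edge of the threshold (adjusted p = 0.0498) and was lost in 18 of 26 other settings. Over the whole list, the IFN-gamma effect at 8 h was higher than at 1 h for 1 gene, Slc6a9, and lower for 2, Psat1 and Aldh1l2, against 7.39% and 4.99% of all genes. From 8 to 24 h no gene passed edgeR's test of the difference, 12 had an unadjusted p under 0.05 and DESeq2 called 2, against 0.634% and 0.707% of all genes called higher and lower. From 24 to 48 h the effect was lower for 2 genes, Slc6a9 and Slc36a4 (lost in 11 of 26 other settings, 6 of them omissions of a single library), and higher for none, against 1.41% and 0.271%. Of the exonic bases of Slc6a9, 27.8% overlap Ccdc24 on the other strand, a gene with 1104 reads in all libraries against 26613 for Slc6a9.

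Other rises under IFN-gamma were modest. Slc1a4 stood at 69.5, 63.4, 60.2 and 62.9 CPM at 8 h against 50.6, 46.9, 50.4 and 39.05 CPM (0.45 ± 0.12, adjusted p = 0.00428) and at 75.8, 54.4, 54.3 and 48.8 CPM at 24 h against 40.7, 36.6, 34.4 and 33.7 CPM (0.68 ± 0.12). Its libraries did not overlap at either time, and at 48 h its log2 fold change of 0.24 ± 0.12 did not pass the test. Got1 rose by 0.31 ± 0.09 at 8 h and 0.44 ± 0.09 at 24 h, and Aldh18a1 by 0.16 ± 0.05, 0.28 ± 0.05 and 0.18 ± 0.05 at 8, 24 and 48 h. These were small changes, with replicate 1 of IFN-gamma 24 h the highest of its group: Aldh18a1 stood at 159, 131, 137 and 132 CPM at 24 h against 115, 116, 116 and 113 CPM. Slc38a1 rose by 0.50 ± 0.15 at 24 h and 0.73 ± 0.15 at 48 h, and Slc38a2 was called at 8 h alone (0.14 ± 0.05, adjusted p = 0.0455). The Slc38a2 call was lost without replicate 1 or 3 of IFN-gamma 8 h (adjusted p over single-library omissions 0.0174 to 0.0566).

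Several enzymes fell under IFN-gamma. Psat1 stood at 426, 406, 415 and 424 CPM at 8 h against 643, 609, 579.7 and 563 CPM, at 511, 427, 465 and 462 CPM at 24 h against 633, 584, 611 and 606 CPM and at 437, 467, 447 and 463 CPM at 48 h against 608, 589, 495 and 543 CPM. The log2 fold changes were -0.52 ± 0.06, -0.38 ± 0.06 and -0.30 ± 0.06, with no overlap of libraries at any of these times, and the effect was stronger at 8 h than at 1 h (-0.46 ± 0.08, adjusted p = 0.000127). Of its neighbours in serine synthesis, Psph fell by 0.42 ± 0.09 at 8 h and 0.25 ± 0.10 at 48 h (log2, SE). Phgdh stood at 74.3 to 85.2 CPM against 103 to 132 CPM at 8 h, without overlap of libraries. Its log2 fold change of -0.53 ± 0.23 did not pass the test (adjusted p = 0.0865). That SE rests on the spread over all groups, including IFN-gamma 48 h, where Phgdh ran from 30.03 to 84.3 CPM. In the folate pathway, Mthfd1l stood at 14.8, 13.5, 12.3 and 12.8 CPM at 8 h against 26.1, 22.4, 28.9 and 17.99 CPM (-0.83 ± 0.20, adjusted p = 0.00182) and Mthfd1 at 123, 112, 119.5 and 124 CPM against 169, 151, 169 and 143 CPM (-0.40 ± 0.09). Neither was called at 24 or 48 h. Bcat1 fell by 0.32 ± 0.07, 0.21 ± 0.07 and 0.25 ± 0.07 at the 3 times. Got2 fell by 0.23 ± 0.08 at 8 h with overlapping libraries (adjusted p = 0.0334), a call lost without any 1 of 6 libraries, replicates 1, 2 and 3 of both groups.

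Aldh1l2 parted from its untreated course with time. It stood at 144, 155, 137 and 155 CPM in IFN-gamma 8 h libraries against 177, 187, 171 and 195 CPM, at 151, 174, 154 and 159.6 CPM at 24 h against 222, 219, 213 and 263 CPM and at 143, 198, 183 and 169 CPM at 48 h against 327, 267, 295 and 296 CPM. The IFN-gamma levels stayed near those of 1 h, 151 to 166 CPM, while the untreated ones climbed. The log2 fold changes were -0.31 ± 0.08, -0.52 ± 0.08 and -0.77 ± 0.08 (SE, adjusted p = 0.00443, 5.53e-06 and 1.74e-09). The effect at 8 h differed from that at 1 h by -0.37 ± 0.12 (adjusted p = 0.0263), a call lost in 14 of its other settings, 10 of them omissions of a single library. The steps from 8 to 24 h (-0.22 ± 0.12) and from 24 to 48 h (-0.25 ± 0.12) did not pass the test of the difference. Of the exonic bases of Aldh1l2, 14.1% overlap D10Wsu102e on the other strand, a gene with 80151 reads in all libraries against 172086 for Aldh1l2. Whether counting used strand is not given, so the part of these reads in the Aldh1l2 counts was not tested.

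**Figure D4:**
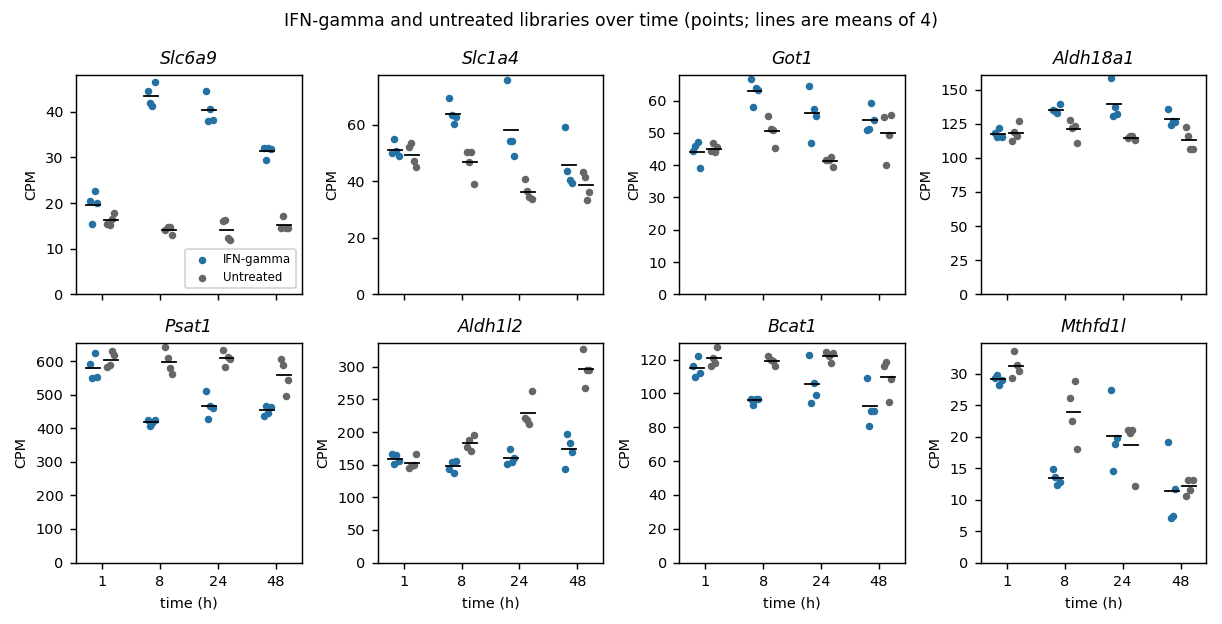
Level in CPM (vertical axes from 0) of 8 of the genes in IFN-gamma (blue) and untreated (grey) libraries at 1, 8, 24 and 48 h, with 4 points and a mean line in each group. Slc6a9 sits at 41.2 to 46.4 CPM in IFN-gamma 8 h libraries against 13.1 to 14.8 CPM in untreated ones, and the Aldh1l2 points of the 2 groups separate with time.

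Some calls at 24 and 48 h rested on 1 library. Replicate 1 of IFN-gamma 24 h was the highest of its group for 27 of the 32 genes and replicate 1 of IFN-gamma 48 h for 22, and both had the lowest sum of premyelinating and myelinating markers in their group. Mthfd2 at 24 h stood at 80.7, 38.3, 54.2 and 51.02 CPM in IFN-gamma libraries against 43.4, 40.6, 43.7 and 29.4 CPM (0.52 ± 0.19, adjusted p = 0.0467), and without replicate 1 of IFN-gamma the value was 0.29 (adjusted p = 0.31). Cth at 24 h, at 6.03, 2.67, 3.0002 and 2.81 CPM against 2.39, 2.203, 2.505 and 1.57 CPM, had a log2 fold change of 0.75, and of 0.40 without it (adjusted p = 0.291). Likewise the calls of Slc3a2 (0.26), Slc7a3 (0.99) and Slc38a1 at 24 h were lost without that library, at 0.14, 0.59 and 0.41. At 48 h Shmt1 stood at 53.7, 12.7, 15.6 and 30.7 CPM in IFN-gamma libraries against 14.7, 23.8, 11.2 and 16.3 CPM (0.77 ± 0.29) and Slc7a5 at 62.2, 24.4, 24.8 and 41.3 CPM against 22.1, 36.7, 17.7 and 25.7 CPM (0.58 ± 0.23). Without replicate 1 of IFN-gamma 48 h they were no longer called, at 0.24 and 0.23, nor were Cth (1.07 with it and 0.67 without) and Pycr1 (-0.40 and -0.34). Untreated replicates decided calls too: without replicate 4 of untreated 24 h, the values of Mthfd2, Cth, Slc3a2 and Slc38a1 were 0.40, 0.61, 0.22 and 0.38, none of them called. Other single omissions that ended these calls were untreated replicate 2 for Mthfd2, Cth, Slc3a2 and Slc7a3, untreated replicate 1 for Slc7a3, untreated replicate 3 for Slc3a2 and IFN-gamma replicate 3 for Mthfd2 at 24 h. Bcat1 at 24 h was lost without replicates 1 or 4 of untreated or 2 or 4 of IFN-gamma cells. At 48 h they were untreated replicate 1 or 4 for Shmt1, Slc7a5 and Pycr1, untreated replicate 3 and IFN-gamma replicate 4 for Shmt1 and Slc7a5, and untreated replicates 1, 2 or 3 or IFN-gamma replicate 2 for Psph (adjusted p over single-library omissions 0.00296 to 0.549 for Shmt1 and 0.0182 to 0.171 for Psph). Slc7a11 at 48 h, called at 1.35 ± 0.49, rested on 21, 33, 25 and 6 reads in IFN-gamma libraries against 10, 18, 1 and 3 reads in untreated ones, and its libraries overlapped. Its call was lost without replicates 3 or 4 of untreated or 2 or 3 of IFN-gamma cells (adjusted p 0.00675 to 0.111), and its log2 fold change ran from 0.38 with the transcript table to 2.82 when only the 20 libraries with the higher library numbers were fitted. Slc36a4 fell at 48 h (-0.28 ± 0.06), to 58.7, 58.4, 59.7 and 57.02 CPM against 75.4, 59.8, 74.3 and 74.4 CPM.

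Thapsigargin and IFN-gamma were also compared directly at 8 h, where both comparisons with untreated cells share the same 4 untreated libraries. Against IFN-gamma, thapsigargin cells had 28 genes higher and 3 lower, with 29.9% and 31.5% of all genes called. The 3 lower ones were Shmt1 (-1.79 ± 0.29), Mthfd1 (-0.70 ± 0.09) and Got2 (-0.32 ± 0.08), and Cbs was not called (-0.04 ± 0.20, adjusted p = 0.876). Psat1, raised by thapsigargin and lowered by IFN-gamma, differed by 1.06 ± 0.06. Slc6a9, raised by both, stood at 159 ± 6.97 CPM with thapsigargin and 43.5 ± 2.41 CPM with IFN-gamma (SD, n = 4 each), a log2 difference of 1.87 ± 0.09 (SE, adjusted p = 1.82e-19). Slc1a4, also raised by both, differed by 2.64 ± 0.12, and Asns, not called under IFN-gamma, by 3.71 ± 0.13.

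In untreated cells more of the genes fell than rose as time in differentiation went on. At 8 h 2 genes were higher than at 1 h and none lower by edgeR, against 4.77% and 2.16% of all genes. At 24 h 2 were higher and 14 lower, against 13.9% and 14.4%, and at 48 h 4 were higher and 16 lower, against 31.9% and 30.4%. The median log2 fold change over the 32 genes was -0.22 at 24 h and -0.38 at 48 h, and about 0 over all genes at both times. Without replicate 4 of untreated 24 h, the library richest in myelin markers of its group, 9 genes were called at 24 h in place of 16. Single libraries at either time decided the 24 h calls of Asns, Gpt2, Mthfd1, Mthfd2, Psph, Shmt1, Shmt2 and Slc38a1 (adjusted p over single-library omissions 0.0685 to 0.239 for Mthfd1 and 0.0148 to 0.0826 for Shmt1). The 3 comparisons share the untreated 1 h libraries.

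Shmt1 and the carriers Slc7a5 and Slc1a5 fell furthest by 48 h. Shmt1 stood at 14.7, 23.8, 11.2 and 16.3 CPM at 48 h against 72.7, 79.1, 81.7 and 71.4 CPM at 1 h, or -2.20 ± 0.29 on the log2 scale (SE, adjusted p = 6.79e-08). Slc7a5 stood at 22.1, 36.7, 17.7 and 25.7 CPM against 99.3, 99.98, 102 and 102 CPM (-1.98 ± 0.23) and Slc1a5 at 3.82, 5.699, 3.01 and 4.47 CPM against 18.01, 16.3, 16.5 and 13.05 CPM (-1.90 ± 0.26). For these 3 genes each 48 h library was far below each 1 h library, and replicate 2 of 48 h, which had the lowest myelin marker sum, was the highest of its group. Phgdh stood at 38.9, 71.6, 26.4 and 40.03 CPM against 120.5, 124, 143 and 119.5 CPM (-1.52 ± 0.23), and Slc38a1 at 40.3, 71.1, 39.5 and 43.1 CPM against 109.5, 121, 113 and 116 CPM (-1.24 ± 0.16). The other falls ran from -1.48 for Cth, -1.37 for Mthfd1l, -1.21 for Slc7a1 and -1.12 for Mthfd2 through -0.81 for Shmt2, -0.79 for Slc3a2, -0.68 for Mthfd1, -0.67 for Asns and -0.59 for Cbs to -0.40 for Psph and -0.36 for Slc1a4. Both cytosolic and 3 of the 4 mitochondrial folate enzymes were among those that fell. The calls of Cbs and Slc1a4 were lost without replicate 3 of untreated 48 h, and that of Slc1a4 also without replicate 2 of untreated 1 h. Psat1 kept 495 to 608 CPM at 48 h against 584 to 629.6 CPM at 1 h and did not pass the test (-0.12 ± 0.06).

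Few genes rose with differentiation. Aldh1l2 stood at 327, 267, 295 and 296 CPM at 48 h against 144, 148, 149.9 and 166 CPM at 1 h (0.96 ± 0.08, adjusted p = 9.77e-11), after smaller rises at 8 h (0.26) and 24 h (0.59). It was the one folate enzyme of the list called higher at 48 h. The 8 h call was lost without any 1 of 5 libraries (adjusted p 0.0276 to 0.179). Pycr1 stood at 10.2, 7.87, 8.67 and 10.9 CPM against 5.7003, 4.75, 5.95 and 6.25 CPM (0.73 ± 0.14), a call that was lost when the isoform table was summed per gene. Bcat2 (0.27 ± 0.09) and Slc36a4 (0.14 ± 0.06) rose by little at 48 h with overlapping libraries, Bcat2 was also called at 8 h (0.33, lost without replicate 2 of untreated 1 h), and Gpt2 was called at 24 h only (0.26).

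Levels of different genes were set beside each other per length, as TPM, in which each transcript is divided by its length before scaling, computed from the deposited estimated transcript counts. In untreated 8 h cells Psat1 led the list at 459 ± 18.6 TPM (SD, n = 4), ahead of Got2 at 179.6 ± 8.14, Phgdh at 137 ± 13.2, Gpt2 at 134 ± 15.7 and Slc38a2 at 128 ± 5.96 TPM. The last 3 of these lie within about 1 SD of their neighbours. Slc7a3 (1.02 ± 0.289), Slc7a11 (2.43 ± 0.669) and Cth (3.12 ± 0.645) were the lowest. In IFN-gamma 8 h cells the order at the top was similar, with Psat1 at 294 ± 19.5, Got2 at 139.7 ± 15.05 and Slc38a2 at 128 ± 7.56 TPM. Under thapsigargin for 8 h, Asns led at 916 ± 65.4 TPM, ahead of Slc3a2 at 727 ± 76.96 and Phgdh at 721 ± 75.8, which lie within 1 SD of each other, then Psat1 at 655 ± 52.9 and Slc7a5 at 507 ± 40.6 TPM. Cbs (3.28 ± 0.2402) and Shmt1 (13.5 ± 1.89) were then the lowest, and Slc7a3 (70.8 ± 2.89) and Slc7a11 (54.9 ± 4.85) stood within the range of the other carriers. At 48 h untreated cells again had Psat1 first (438 ± 36.5 TPM), with Aldh1l2 at 115 ± 7.23 TPM.

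The estimated counts also show which annotated transcript carried each gene, given here as a description with no test. In 29 of the 32 genes the leading transcript was the same in thapsigargin 8 h and untreated 8 h cells. The exceptions were Cbs, Slc7a11 and Slc7a3. For Slc7a11 the protein-coding Slc7a11-201 held 93.9% of the gene's estimated counts with thapsigargin (range 92.01 to 95.1% over 4 libraries), against 19.04% in untreated cells (14.3 to 24.1%), where the retained-intron transcript Slc7a11-202 held 75.4%. In IFN-gamma 8 h cells the protein-coding transcript held 33.1% (26.7 to 44.5%). Counted on the protein-coding transcript alone, Slc7a11 thus had 4212 estimated counts on average with thapsigargin, against 15.97 in untreated libraries. The retained-intron Slc7a11-202 alone held 36.5 to 108 estimated counts per untreated 8 h library, against 5 to 13 reads on the whole gene in the gene counts. Most estimated counts behind the untreated shares thus had no counterpart in the gene counts, and the reason was not tested. The shares alone do not show a switch of transcript. For Slc7a3, Slc7a3-201 held 46.6% with thapsigargin and was listed at 0 in every IFN-gamma and untreated 8 h library, where Slc7a3-203 held 76.3% and 86.2%. The whole gene had only 11 to 30 reads per IFN-gamma and 6 to 22 per untreated 8 h library. A 0 for Slc7a3-201 there is thus near the floor and does not show that it was absent. For Slc38a1, Slc38a1-202 held 70.5% with thapsigargin (61.5 to 76.8%), against 35.1% in untreated cells (28.02 to 43.4%), without overlap of libraries.

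**Figure D5:**
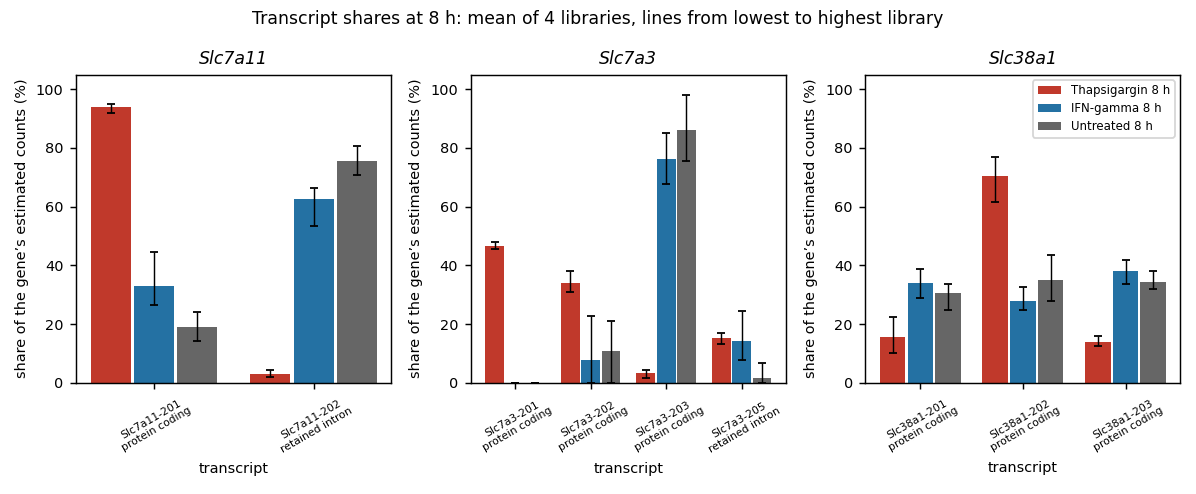
Share of each gene's estimated counts (vertical axis, %) held by its main annotated transcripts (horizontal axis) at 8 h in thapsigargin (red), IFN-gamma (blue) and untreated (grey) cells, as means of 4 libraries with lines from the lowest to the highest library. Slc7a11-201 holds 93.9% with thapsigargin and 19.04% in untreated cells, and Slc7a3-201 appears with thapsigargin only.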

How the data were processed

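RNA of 40 libraries, 4 in each of 10 groups, was measured by bulk sequencing. The authors deposited read counts per gene and estimated counts per transcript. STAR, featureCounts, kallisto and edgeR are named, without versions, in the submitters' processing notes. The genome build, annotation and strand setting are stated in none of the sources used here. No value column lacked a sample (0 columns). Libraries were grouped by their labels, and replicates were numbered in accession order, so numbers pair nothing.

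Deposited gene counts were tested in edgeR 4.0.16 (R 4.3.3, with limma 3.58.1) by a quasi-likelihood fit over all 40 libraries, with TMM scaling, filterByExpr by group and Benjamini-Hochberg adjustment over 15135 genes at a threshold of 0.05. A prior count of 0.125 was added in fitting, and SE is the log2 fold change over the square root of F. Ratios of 2 gene pairs whose members moved the same way are given with a test by exact permutation, whose smallest two-sided p for 4 against 4 is 0.0286. TPM values were computed from the deposited estimated counts and transcript lengths of the GENCODE annotation, which also gave gene names. Promoter windows came from RefSeq (GRCm38.p6). The pipeline was tested on simulated data. Depth was 13165483 to 22651092 reads on genes, and precision was taken from the spread between libraries.

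The members and lists were chosen with earlier results of these data known. All 32 members are named. Of other pathway genes, at most 3 called genes a list and comparison were named, those with the largest change whose mean log2 CPM was 1 or more and whose libraries did not overlap, and Atf4, Ddit3 and Trib3 whatever their values. Alternatives were RLE size factors, no filter, DESeq2 1.42.0, the compared groups alone, library number range as a block or split, the Y-linked level as a covariate, the transcript table summed per gene, and leaving out each library.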

Additional observations from a re-analysis of the deposited data

Results flagged for a closer look

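Of 320 combinations of a gene and a group, 20 (6.25%) had 1 library far from its other 3 by Dixon's criterion, where chance gives about 5%. In replicate 4 of untreated 24 h, 5 genes were low: Shmt1 at 22.6 CPM (other libraries 44.8 to 49.01), Mthfd1l at 12.2 CPM (20.6 to 21.1), Slc7a5 at 32.7 CPM (55.8 to 58.8), Slc7a1 at 34.2 CPM (58.9 to 59.9) and Slc3a2 at 52.3 CPM (59.6 to 61.1). In replicate 2 of untreated 48 h, Slc6a9 at 17.1 CPM (14.4 to 14.6), Slc38a1 at 71.1 CPM (39.5 to 43.1) and Slc38a2 at 339 CPM (288 to 294) were high and Slc36a4 at 59.8 CPM (74.3 to 75.4) was low. These libraries had the highest and the lowest sum of premyelinating and myelinating markers of their groups, whose part in the values was not tested.

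Replicate 1 of IFN-gamma 24 h was high for Psph at 50.4 CPM (38.2 to 39.2) and Cth at 6.03 CPM (2.67 to 3.0002). Replicate 3 of thapsigargin 1 h was low for Mthfd2 at 43.6 CPM (66.05 to 69.8) and Slc7a1 at 72.5 CPM (86.1 to 88.7). With thapsigargin at 8 h, replicate 4 was low for Cth at 95.99 CPM (109.6 to 110.3) and replicate 3 high for Slc3a2 at 674 CPM (651 to 654). Single IFN-gamma libraries stood apart for Bcat1 (93.3 CPM in replicate 2 of 8 h, others 96.5 to 96.7), Slc38a7 (28.6 CPM in replicate 4 of 8 h, others 22.99 to 23.6) and Slc6a9 (29.4 CPM in replicate 2 of 48 h, others 31.9 to 31.97). Single untreated libraries did so for Slc38a7 (18.7 CPM in replicate 3 of 24 h, others 22.6 to 23.3) and Cth (3.72 CPM in replicate 3 of 1 h, others 2.95 to 3.08).

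Effects differed between times by the interaction test of edgeR for 31 genes under thapsigargin (8 h against 1 h), with log2 differences of 8.65 for Slc7a11 and -1.98 for Shmt1. Under IFN-gamma they differed for 3 genes between 8 and 1 h, Slc6a9 (1.35), Psat1 (-0.46) and Aldh1l2 (-0.37), and for 2 genes between 48 and 24 h, Slc6a9 (-0.48) and Slc36a4 (-0.35). The calls of Aldh1l2 and of both genes between 48 and 24 h were lost in many other settings, as given above. Leaving out single libraries gave 0 to 4 genes between 48 and 24 h.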

How the results depend on the processing

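The counts of genes called at 8 h of thapsigargin against untreated and against IFN-gamma cells, in the thapsigargin effect at 8 against 1 h, in untreated cells of 48 against 1 h and at 1 h of IFN-gamma stayed within 1.5 times under every alternative other than single omissions. For thapsigargin at 1 h (1 gene) the count was 0 without a filter, in the lower 20 library numbers, with the transcript table summed per gene and with its protein-coding transcripts alone (chosen after seeing the data), 2 with library range as a block and with DESeq2, and 4 with the compared groups alone. For IFN-gamma at 8 h (12 genes) it was 6 in the lower 20 libraries and 20 with the compared groups alone, at 24 h (12) 6 and 7, and at 48 h (13) 3 and 2, with 7 in the upper 20 libraries and with the transcript table. For untreated 8 h (2) it was 1 with RLE size factors and both transcript sums, 0 without a filter and in either 20 libraries, and 6 with the compared groups alone, and for untreated 24 h (16) 1 in the lower 20 libraries and 10 with the transcript table. For the IFN-gamma effect at 8 against 1 h (3) it was 11 with the compared groups alone and 5 with DESeq2, and at 24 against 8 h (0 by edgeR, 12 at an unadjusted p under 0.05) 1 with RLE, library range or the compared groups alone and 2 with DESeq2. At 48 against 24 h (2) it was 1 with the Y-linked covariate and 0 without a filter, in the lower 20 libraries, with the compared groups alone and with both transcript sums. Leaving out single libraries gave 0 to 2 genes for thapsigargin 1 h, 0 to 1 for IFN-gamma 1 h, 10 to 13, 8 to 12 and 9 to 15 for IFN-gamma 8, 24 and 48 h, 0 to 2, 9 to 16 and 19 to 21 for untreated 8, 24 and 48 h, and 2 to 4, 0 to 2 and 0 to 4 for the 3 IFN-gamma differences. Over single genes, 8699 values kept direction and side of the threshold, 290 lost a call, 98 gained one and 0 reversed a called direction. Splits by library number hold fewer libraries; the cause of other shifts was not tested. No paired analysis was possible because replicate numbers follow accession order. Depth limits Slc7a11 and Slc7a3 in untreated cells, which had few reads.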

Other observations

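Other genes of these pathways also moved under IFN-gamma. At 8 h the glutamate transporter Slc1a3 rose by 1.03 ± 0.15 (log2, SE) and the neutral carrier Slc7a8 by 0.93 ± 0.23, while Slc16a10, a carrier of aromatic amino acids, fell by 0.76 ± 0.20 and Gatm, of creatine synthesis, by 0.70 ± 0.10. Gatm was also lower at 24 h (-0.76 ± 0.10) and 48 h (-0.80 ± 0.10). Of the 12 regulators, 5 rose at 8 h, 7 at 24 h and 5 at 48 h, when 2 fell, and none fell at 8 or 24 h, while the shares of all genes called higher and lower were 13.1% and 12.1% at 8 h, 12.6% and 10.5% at 24 h and 16.9% and 19.9% at 48 h. Trib3 rose by 2.23 ± 0.38, 3.19 ± 0.39 and 2.26 ± 0.52 at these times and Cebpb, a C/EBP factor, by 1.69 ± 0.37, 1.56 ± 0.39 and 1.60 ± 0.44. The Trib3 ratio at 8 h starts from a low level in untreated cells, given above, which is far below its level with thapsigargin. Atf4 averaged 167 CPM in IFN-gamma and 133 CPM in untreated cells at 24 h (0.33 ± 0.12) and was not called at 48 h (-0.05 ± 0.12).

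In untreated cells of 48 against 1 h, Tyms fell by 1.76 ± 0.21 (log2, SE), Slc25a13 by 1.52 ± 0.20, and Trib3 by 2.52 ± 0.50. Aldh1l1, the cytosolic counterpart of Aldh1l2, rose by 1.53 ± 0.31, and the glutamate transporter Slc1a1 by 1.28 ± 0.16.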
